A study of Mus musculus with 71 samples.

Results

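Nicotinamide riboside (NR) was set against saline in the cerebellum of old Csb mice. The comparison rests on 7 of the 71 arrays in the series, chosen by their sample titles: 4 arrays of old Csbm/m mice given NR and 3 of old Csbm/m mice given saline. All of these mice are labelled as male, C57BL/6 and 18 months old, kept on house chow. Both groups carry the Csbm/m genotype (written Csb below) and received daily injections for 1 week. The NR groups received 500 mg per kg per day into the peritoneum. RNA of whole cerebellum was read on 1-colour Illumina bead arrays. The other 22 injection arrays entered only the normalization, the estimate of the spread and the comparisons named as such. They came from old wild-type (WT) mice (3 saline, 5 NR) and from 4-month-old mice, called young (Csb with 3 saline and 3 NR arrays, WT with 4 and 4). Of the diet arrays, all from male C57BL/6 mice 1 year old, 3 groups were used to choose probe lists and for 1 correlation: Csb on the standard diet (6 arrays), WT on the standard diet (4) and Csb on a high-fat diet (7), normalized and fitted with the other diet arrays, apart from the injection arrays. The labels number replicates without saying that each is a separate animal, so every p-value measures the spread between these arrays.

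NR is a form of niacin that cells phosphorylate with NR kinases and then join to an adenylyl group to make NAD+. The poly(ADP-ribose) polymerases and sirtuins consume NAD+, the former when DNA is damaged. CSB, the product of Ercc6, brings repair factors to stalled RNA polymerase, and its loss causes Cockayne syndrome, in which the cerebellum degenerates. The study used NR to ask what more NAD+ does in Csb mice.

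Granule cell and Purkinje cell markers were bright on all 7 arrays. Genes listed as markers of neurons that lie outside the cerebellum were also detected, to a degree that differed between arrays, and are given below. Cbln1, made by granule cells, lay between 13.15 and 14.13 on the 7 arrays, and Pcp2, made by Purkinje cells, between 12.62 and 13.37 (all levels are log2 normalized intensities). No probe on the array is named Ercc6, so the mutated gene itself could not be checked. Ncoa4, which lies on chromosome 14 as Ercc6 does, read 6.94 to 7.61 on all Csb injection arrays except young Csb NR replicate 2, at 8.91. The 3 arrays labelled old WT saline stood at 7.36 to 7.74, inside or near the Csb range, and the other WT arrays at 8.82 to 10.28. These 4 arrays go against their labels at this probe, and results that use them are given with that in view. Arhgap22, also on chromosome 14, read 7.78 to 8.41 on the old WT saline arrays. It read 7.80 to 8.30 in old Csb and 5.59 to 7.58 in old WT with NR. Gpd2, on chromosome 2, ordered the groups otherwise. It read 11.01 to 11.03 on the old WT saline arrays, 10.91 to 11.26 in old WT with NR and 7.81 to 8.22 in old Csb. In young Csb it read 10.22 to 11.14 with NR and 7.83 to 11.05 with saline. Whether any label is wrong was not tested.

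One of the 7 arrays stood apart. Saline replicate 3 correlated with the other 6 at 0.957 to 0.967 over the probes kept, while those 6 correlated with each other at 0.977 to 0.993. At 799 probes it lay over 1 log2 unit from the median of the other 6 arrays, against 16 to 116 probes for each of the others. Its largest excesses were in S100a8, a neutrophil protein (12.01 against 6.60 to 8.89 on the other 6 arrays), Lcn2, an acute phase protein (11.57 against 6.03 to 8.88), and Retnlg, another neutrophil product (9.58 against 4.77 to 5.27). Its largest deficits were in Gpr17 (4.90 against 7.60 to 8.44) and in Cx3cr1, the fractalkine receptor of resting microglia (6.23 against 9.04 to 9.67). P2ry12, another marker of resting microglia, stood at 6.45 on it, inside the range of the others (6.11 to 6.83). Results are therefore also given without this array. The share of probes detected was 50.4% ± 1.93 (SD, n = 4) with NR and 50.4% ± 1.04 (SD, n = 3) with saline (exact permutation test, two-sided, p = 1), and the array background was 56.3 ± 1.97 and 56.3 ± 2.06 in raw intensity (p = 1). The smallest p this exact test allows is 0.0286.

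No probe passed the threshold between NR and saline in old Csb: 0 of 13948 (0%) reached an adjusted p under 0.05 in limma, and the lowest adjusted p was 0.197. At an unadjusted p under 0.05 stood 1486 probes (10.7%), of which 917 were higher (6.57% of all tested) and 569 lower (4.08%) with NR. The 7 arrays parted without overlap at 1096 probes that were higher with NR (7.86%) and 910 that were lower (6.52%). Without saline replicate 3 the number at an unadjusted p under 0.05 was 707 and the lowest adjusted p was 0.74. Without saline replicate 1, 3 probes were higher and 8 lower past the threshold. With array weights, which gave saline replicate 3 a weight of 0.216 and the other 6 arrays weights of 1.13 to 2.30, 54 probes were higher and 38 lower past the threshold. Counts of 0 elsewhere in the text are read beside these. The genes below are those with the lowest p in each direction, 10 each, given as values that did not pass the threshold.

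Among the genes that stood higher with NR, Wars2 had the lowest p. It encodes the mitochondrial tryptophanyl-tRNA synthetase, which charges the tryptophan tRNA for protein synthesis in mitochondria. Its level was 8.69, 8.92, 8.52 and 8.50 on the NR arrays and 8.08, 7.86 and 7.33 on the saline arrays. All NR arrays lay above all saline arrays, and the group means were 8.66 ± 0.19 (SD, n = 4) and 7.75 ± 0.39 (SD, n = 3). The log2 difference was 0.90 (SE 0.17, limma adjusted p = 0.197), or 1.87-fold. It was 0.69 without saline replicate 3.

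Ednrb, the endothelin B receptor, read 8.22, 7.96, 7.97 and 8.31 with NR and 7.46, 7.46 and 6.23 with saline. The groups did not overlap, but the lowest saline value was replicate 3, and the log2 difference of 1.07 (SE 0.22, adjusted p = 0.197) was 0.65 without it. Of the 2 other kept Ednrb probes, 1 was of the opposite sign, with a log2 difference of -0.17. The gene's 3 kept probes did not share a direction.

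Ezh2 is the Polycomb enzyme that methylates histone H3 to silence genes. It stood at 8.77, 9.06, 8.50 and 8.79 on the NR arrays and at 7.99, 7.94 and 8.01 on the saline arrays. Here saline replicate 3 sat with its group: the log2 difference was 0.80 (SE 0.17, adjusted p = 0.285) with it and 0.81 without it. Smc1a, a ring subunit of cohesin, was not well above background on any saline array (5.68, 5.52 and 5.39) and detected on all 4 NR arrays (6.17, 6.24, 5.99 and 6.64), at least 1.50-fold higher (adjusted p = 0.285). Its 3 other kept probes had log2 differences of 0.01 to 0.28 and overlapping groups.

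Cacnb4 and Vldlr act in cerebellar neurons. Cacnb4, the calcium channel beta subunit that is mutated in the ataxic lethargic mouse, read 10.55, 10.62, 10.25 and 10.34 with NR and 9.75, 9.66 and 8.97 with saline (log2 difference 0.98, SE 0.23, adjusted p = 0.285). Its second probe differed by 0.31 in the same direction, again without overlap. Vldlr, a receptor for reelin, read 6.50, 6.37, 6.54 and 6.88 with NR and 5.92, 5.61 and 5.16 with saline (log2 difference 1.01, SE 0.25, adjusted p = 0.285). All 4 other Vldlr probes had the NR arrays above the saline arrays, by 0.22 to 0.82. The direction was the same at every kept probe of both genes, while the size differed between probes.

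The remaining 4 genes in this direction had log2 differences between 0.57 and 0.93, and none of their groups overlapped. Galnt13, which starts O-linked glycan chains in neural tissue, differed by 0.85 (SE 0.20). Aggf1, an angiogenic factor, differed by 0.93 (SE 0.21) and by 0.60 without saline replicate 3, and its 3 other probes by 0.03 to 0.27. 6430548M08Rik, whose product has no role given here, read 11.37, 11.44, 11.01 and 11.12 with NR and 10.64, 10.67 and 10.70 with saline, and its difference of 0.57 (SE 0.14) was 0.58 without saline replicate 3. Abitram, an actin-binding regulator of transcription, differed by 0.65 (SE 0.16) and by 0.37 without that array.

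Among the genes that stood lower with NR, Chrna6 came first. It encodes the alpha-6 subunit of nicotinic acetylcholine receptors, known from midbrain dopamine neurons. The NR arrays read 5.74, 4.67, 5.42 and 4.60 and the saline arrays 6.73, 6.51 and 6.39. Only 1 of the 4 NR arrays detected it, while all 3 saline arrays did, and the log2 difference was -1.44 (SE 0.30, adjusted p = 0.197). The second Chrna6 probe showed the same order, at 5.27, 4.74, 5.57 and 4.67 with NR, where no array detected it, and 6.61, 6.19 and 5.83 with saline. That probe was at least 1.45-fold lower with NR (adjusted p = 0.28).

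Upp1 and Uck2 handle uridine, the former by splitting it to uracil and the latter by phosphorylating it. Upp1 read 5.23, 5.52, 5.18 and 4.84 with NR, where no array detected it, and 6.03, 5.80 and 6.26 with saline, at least 1.28-fold lower with NR (adjusted p = 0.197). Both other Upp1 probes had all NR arrays below all saline arrays, with log2 differences of -0.71 and -0.99. Uck2 read 9.42, 9.43, 9.05 and 9.20 with NR and 9.49, 9.89 and 10.34 with saline, a narrow gap (log2 difference -0.63, SE 0.16, adjusted p = 0.285). Without saline replicate 3 the Uck2 difference was -0.41.

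Pf4, a chemokine stored in platelets, had the largest difference of the 20. It read 5.67, 5.46, 5.91 and 4.94 with NR and 6.36, 6.58 and 9.14 with saline, with saline replicate 3 far above the other arrays. The log2 difference was -1.86 (SE 0.47, adjusted p = 0.285) with that array and -0.97 without it. Plac8, found in white blood cells, read 4.89, 5.19, 4.89 and 5.05 with NR, where no array detected it, and 5.37, 5.92 and 7.91 with saline (at least 1.65-fold lower, adjusted p = 0.285). Its difference of -1.40 was -0.64 without saline replicate 3.

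Alox12, the platelet-type lipoxygenase, read 5.82, 5.55, 5.71 and 5.68 with NR and 6.37, 6.59 and 7.80 with saline. Its log2 difference of -1.23 (SE 0.28) was -0.79 without saline replicate 3. Wfdc17, a small secreted protein of activated microglia and macrophages, read 6.42, 6.11, 5.92 and 5.69 with NR and 6.84, 6.95 and 8.32 with saline, and its difference went from -1.34 to -0.86. Acta2, the actin of smooth muscle, was the only one of the 20 whose groups overlapped: 8.34, 8.07, 8.39 and 7.83 with NR against 8.28, 9.27 and 10.03 with saline. Its difference was -1.04 with all arrays, -0.62 without saline replicate 3 and -1.49 without saline replicate 1, where it passed the threshold (adjusted p = 0.00199).

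Ccl5, a chemokine that attracts T cells, read 5.62, 5.58, 5.48 and 5.07 with NR and 5.65, 6.65 and 6.22 with saline, where saline replicate 1 lay only just above the highest NR array. The log2 difference of -0.74 (SE 0.19, adjusted p = 0.285) was -0.71 without saline replicate 3. C130074G19Rik was detected on no NR array and on all 3 saline arrays (at least 1.37-fold lower, adjusted p = 0.285).

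**Figure D1:**
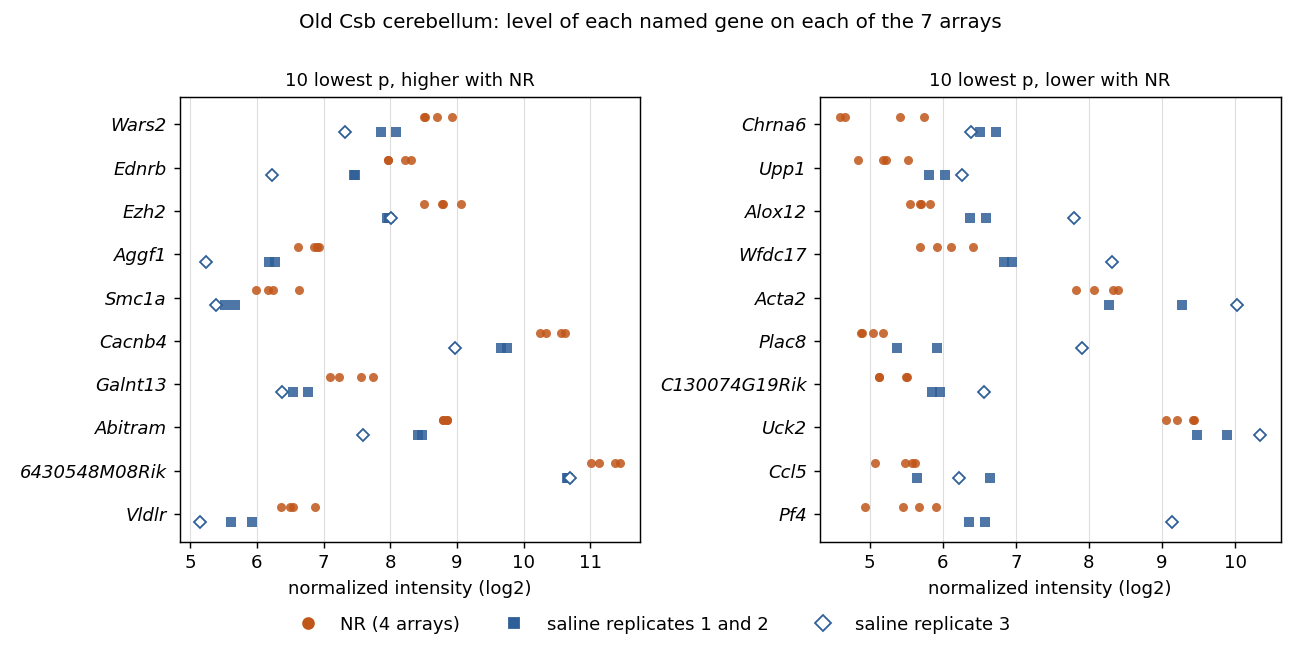
Log2 normalized intensity (x axis) of the 10 genes with the lowest p in each direction (y axis) on the 7 old Csb arrays, with NR arrays as filled circles, saline replicates 1 and 2 as filled squares and saline replicate 3 as an open diamond. The groups part for every gene except Acta2, and saline replicate 3 lies farthest out for genes such as Pf4 and Plac8 but within its group for Ezh2 and 6430548M08Rik.

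**Figure D2:**
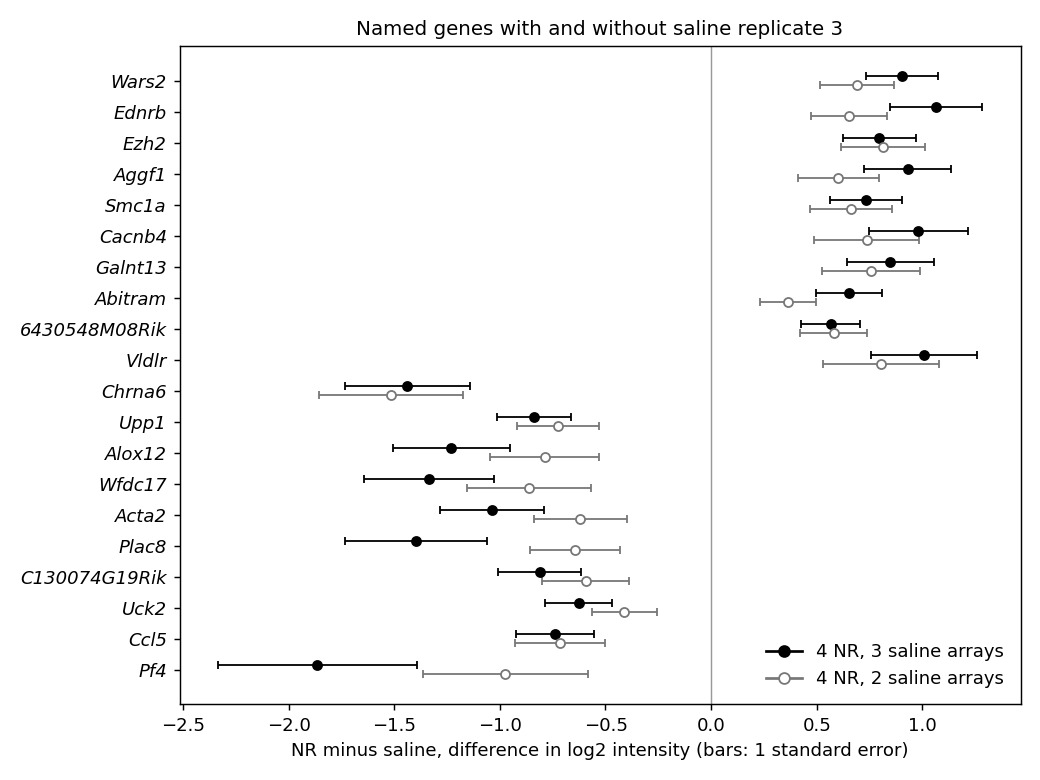
Log2 difference between NR and saline with its standard error for the same 20 genes, with all 7 arrays (filled) and without saline replicate 3 (open). Each difference keeps its direction, which leaving out an array can hardly change where groups do not overlap. Of the 20, 9 shrink by more than 1.5 times, Plac8 most, from -1.40 to -0.64.

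The 20 genes were then read across the 8 injection groups. For all 10 genes that stood higher with NR, old Csb saline had the lowest of the 8 group means, and for all 10 that stood lower it had the highest. NR in old Csb was itself at the opposite end for 0 and 2 of them. The same order held for 867 of the 917 probes higher with NR at an unadjusted p under 0.05 (94.5%) and for 519 of the 569 lower (91.2%). Over all probes of a higher sign it held for 52.7%, and over all of a lower sign for 46.6%. These probes were picked for the gap between NR and this saline group, which favours such an order, and without saline replicate 3 it held for 10 and 8 of the 20 genes.

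Wars2 had this order in its means, but its old Csb saline range overlapped both old WT groups. Old Csb saline lay at 7.33 to 8.08 and old Csb NR at 8.50 to 8.92, while the young Csb NR arrays lay at 8.53 to 8.96 and the young WT groups at 8.43 to 9.09. Old WT was at 7.96 to 8.20 with saline and 7.83 to 8.49 with NR, below every old Csb NR array. Upp1 lay the other way, at 5.80 to 6.26 with saline and 4.84 to 5.52 with NR in old Csb, and at 4.65 to 5.29 in the other 6 groups.

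**Figure D3:**
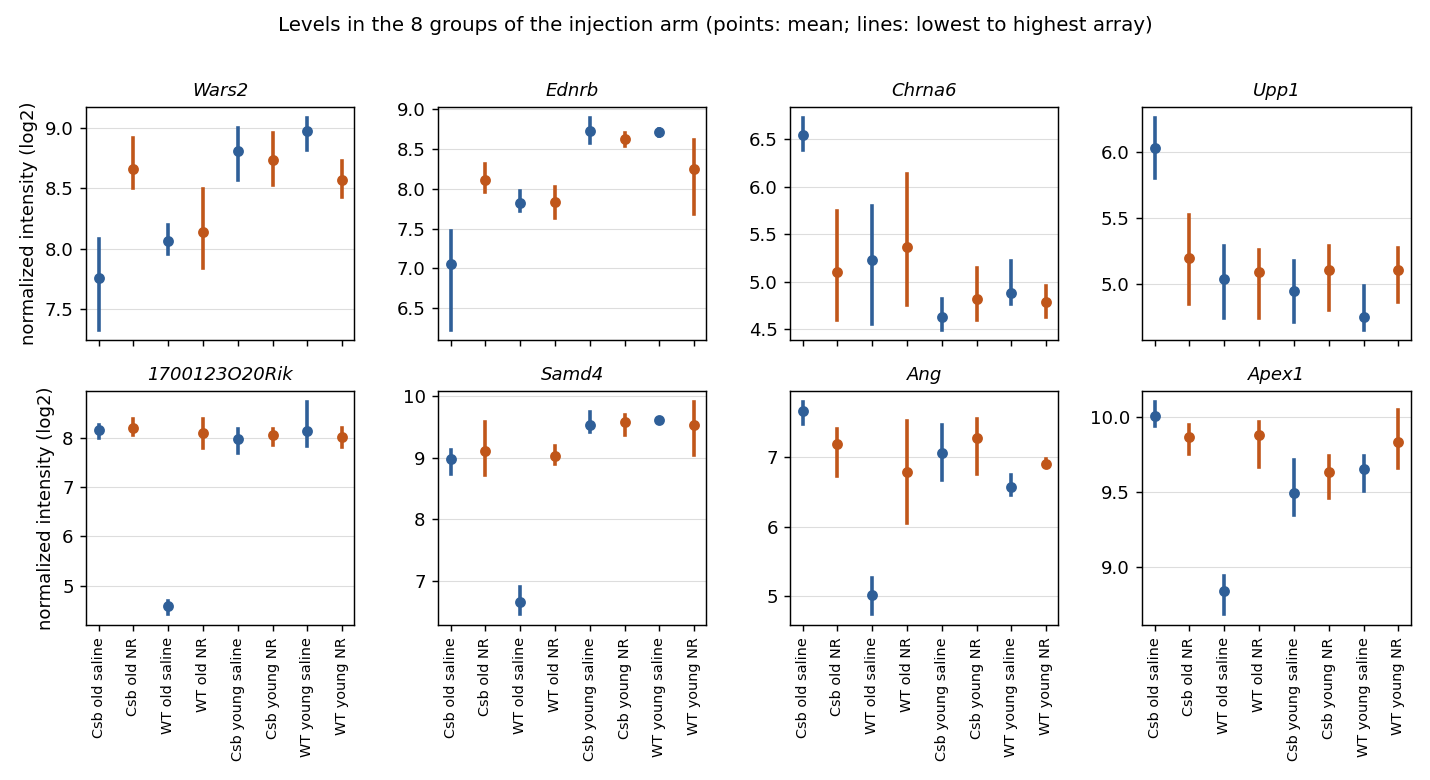
Log2 normalized intensity (y axis) in the 8 injection groups (x axis), with the mean as a point and the lowest to highest array as a line, saline in blue and NR in orange. In the upper row old Csb saline has the lowest group mean for Wars2 and Ednrb and the highest for Chrna6 and Upp1. For Wars2 its range overlaps both old WT groups. In the lower row old WT saline is the lowest group for 4 probes on chromosome 14, while the old Csb groups lie near the rest.

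The genes that make and spend NAD+ did not change past the threshold. Of 21 listed genes of NAD synthesis, salvage and breakdown, 10 passed the filter on dim probes, and 0 rose and 0 fell in limma. At an unadjusted p under 0.05 stood 1 that was higher and 2 that were lower, and over all 9585 genes 939 did (9.8%). Their median log2 difference was -0.10 (-0.06 without saline replicate 3), against 0.00 over all genes, of which 49.8% had a higher sign. Nmrk1, an NR kinase, read 6.36, 6.68, 6.70 and 6.67 with NR and 6.71, 6.63 and 6.47 with saline, and the groups overlapped (log2 difference 0.00, SE 0.16). Nampt, the rate-limiting enzyme of nicotinamide salvage, read 7.58, 7.87, 7.49 and 7.48 with NR and 7.69, 7.94 and 8.64 with saline (log2 difference -0.49, SE 0.23), with saline replicate 3 the highest, and differed by -0.21 without that array. Nnmt, which methylates nicotinamide for disposal, differed by -0.43 (SE 0.22), was also highest on that array, at 6.81, and differed by -0.04 without it.

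Nadk, which phosphorylates NAD+ to NADP+, had the lowest p of the kept NAD synthesis genes that stood higher with NR. It read 10.46, 10.35, 10.52 and 10.66 with NR and 10.35, 10.05 and 9.91 with saline. The lowest NR array and the highest saline array were nearly level. Its log2 difference was 0.39 (SE 0.14, adjusted p = 0.355) and 0.30 without saline replicate 3. Nmnat2, the adenylyltransferase of neuronal axons, was 7.11, 7.33, 7.05 and 7.46 with NR and 6.88, 7.01 and 6.81 with saline (0.34, SE 0.24). Nmnat1, Nmnat3 and Nmrk2, which carry out the same steps, were among the 11 listed genes that had no kept probe.

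Of 14 listed NAD-consuming genes 8 were kept, and 0 rose and 0 fell, with 1 higher and 1 lower at an unadjusted p under 0.05 (median log2 difference 0.10). The polymerases Parp1 and Parp2 had every NR array above every saline array, with saline replicate 3 the lowest. Parp1 read 10.28, 10.31, 10.28 and 10.37 with NR and 10.16, 10.21 and 9.74 with saline (log2 difference 0.27, SE 0.14), and Parp2 differed by 0.41 (SE 0.19). These differences were 0.12 and 0.19 without saline replicate 3. Sirt2, a mainly cytosolic deacetylase, lay the other way, at 9.35, 9.40, 9.39 and 9.39 with NR and 9.73, 9.61 and 9.56 with saline (-0.25, SE 0.12). Sirt1 differed by 0.05 (SE 0.25) and by 0.29 without that array. Without saline replicate 3 the median of the list was 0.02.

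Of 10 mitochondrial biogenesis genes, all kept, 7 had a positive sign and none passed, also at an unadjusted p under 0.05 (median 0.14). Ppargc1a, the main coactivator of the programme, read 9.75, 9.64, 9.55 and 9.50 with NR and 9.47, 9.44 and 9.45 with saline (log2 difference 0.15, SE 0.13). Tfam, which packages mitochondrial DNA, differed by -0.02 (SE 0.13). Transcription-coupled repair genes were close to 0, with a median of 0.07 over 7 kept genes of 11. Ercc8, which encodes CSB's partner CSA, differed by -0.02 (SE 0.14).

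Ketone body genes (3 kept of 7) had a median of -0.09, which was 0.02 without saline replicate 3, and gave 0 calls. Oxct1, the enzyme that commits ketone bodies to oxidation, differed by 0.31 (SE 0.16) and by 0.18 without that array. Immediate early genes, which follow neuronal activity, had 7 of 8 signs negative and a median of -0.28 (-0.15 without saline replicate 3). Over all genes 49.8% had a higher sign. Without that array Jun, Junb and Egr1 turned positive (0.13, 0.01 and 0.04) and Arc turned negative (-0.25). Single differences such as Fos at -0.49 had an SE of 0.55. Clock genes (9 kept of 10) had a median of 0.04 (0.30 without saline replicate 3), with Nr1d1 at 9.99 on saline replicate 3 against 7.25 to 7.86 on the other arrays. Heat shock and unfolded protein genes (7 kept of 8) had a median of 0.16, which was -0.13 without saline replicate 3.

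**Figure D4:**
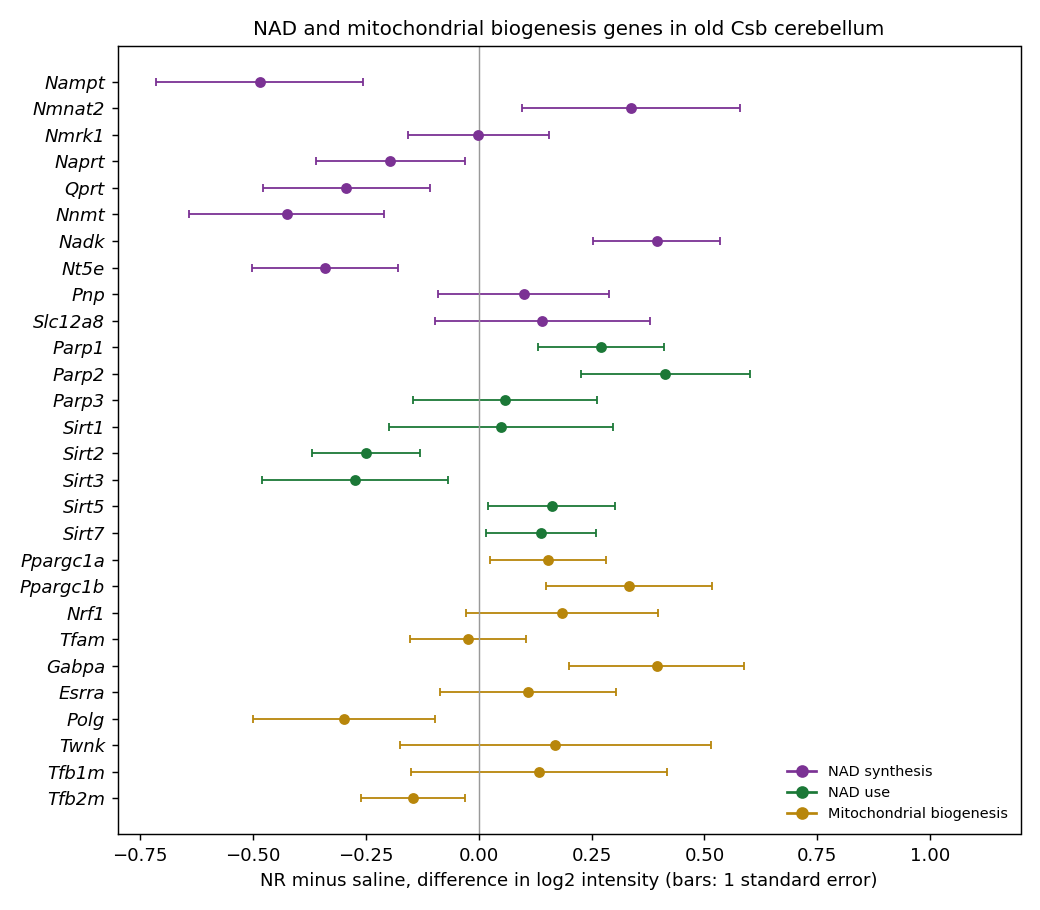
Log2 difference between NR and saline in old Csb with its standard error (x axis) for the 28 kept genes of NAD synthesis, NAD use and mitochondrial biogenesis (y axis). The differences lie between -0.49 (Nampt) and 0.41 (Parp2), and none passed the threshold. Nampt differed by -0.21 and Parp2 by 0.19 without saline replicate 3.

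Cell type markers were read next, since whole tissue was used and fewer cells of a type cannot be told apart from less RNA per cell. Granule cell markers (5 kept of 5) all had a positive sign, with a median log2 difference of 0.48, and 3 reached an unadjusted p under 0.05 but 0 the adjusted threshold. Over all genes 49.8% had a higher sign and 9.8% reached an unadjusted p under 0.05, and 7.86% of all probes parted upward without overlap. Zic2, a zinc finger factor of granule cells, read 9.62, 9.34, 8.94 and 9.44 with NR and 8.43, 8.17 and 8.56 with saline (0.95, SE 0.34). Gabra6, the GABA-A receptor subunit of granule cells, read 8.07, 8.71, 8.28 and 8.51 with NR and 7.71, 7.94 and 7.15 with saline (0.79, SE 0.33). Cbln1 differed by 0.48 (SE 0.22), also without overlap, whereas Neurod1 and Zic1 overlapped. The median was 0.39 without saline replicate 3.

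Pcp2, the only Purkinje marker kept of 5, differed by 0.26 (SE 0.29) and by 0.45 without saline replicate 3. Astrocyte and Bergmann glia markers had a median of 0.30, and 0.11 without that array. Oligodendrocyte markers had a median of -0.15 (-0.34 without it) and microglial markers of -0.29 (-0.62 without it). The endothelial median of -0.16 turned to 0.07 without it. Haemoglobin and other red cell markers had a median of -0.43 (-0.56 without it). Choroid plexus markers had a median of 0.63 (0.29 without it), with Kcne2 at 5.80 on saline replicate 3 and at 7.93 or more on the others. No marker in these lists passed the threshold. Ttr, the transport protein made by the choroid plexus, was bright on all 7 arrays, at 14.32 to 14.80.

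Genes listed as markers of neurons that lie outside the cerebellum were read as well, without a check that other cells lack them. None of them passed the threshold with equal array weights (Slc6a3 and Chrna6 did with estimated weights, adjusted p = 0.0439 and 0.0106 in limma), and these lists were chosen after the Chrna6 values had been seen, so they are described only. Of 9 markers of midbrain dopamine neurons 8 were kept, all 8 had a negative sign, and the median was -0.90 (-0.95 without saline replicate 3). The groups overlapped at Nr4a2 and En1, both transcription factors of these neurons. The mean of the list was 6.70 to 7.69 on the NR arrays and 8.34 to 8.35 on the saline arrays. Slc6a3, the dopamine transporter, read 8.08, 4.84, 8.21 and 4.59 with NR and 10.41, 10.10 and 9.61 with saline, and 2 of the 4 NR arrays detected it. NR replicates 2 and 4 were the lowest, and replicates 1 and 3 lay between them and the saline arrays. Th, which makes the dopamine precursor, read 7.22, 6.64, 7.58 and 7.48 with NR and 8.10, 7.96 and 7.95 with saline. The mean of the serotonin neuron markers (5 kept of 7, median difference -1.20) was again lowest on NR replicates 2 and 4. Gata2 among them was lowest on NR replicates 1 and 4 and highest on saline replicate 3, at 9.46. Its difference went from -0.72 to -0.22 without saline replicate 3. Tph2, which makes serotonin's precursor, read 10.27, 9.28, 10.55 and 6.69 with NR and 10.94, 11.29 and 11.02 with saline.

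In the young Csb arrays Slc6a3 was at 4.56 to 5.54, and it ranged from 4.58 to 9.43 in the old WT arrays. The part that brainstem or midbrain tissue in the samples plays in the differences above was not tested. At Chrna6, one of the listed markers and the first of the lower genes, NR and these markers cannot be told apart in 7 arrays.

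The neutrophil, platelet and acute phase lists were highest on saline replicate 3, whereas the red cell markers were not. Neutrophil markers (5 kept of 9) had a median of -1.66 with all arrays and -0.17 without it. Platelet markers (4 kept of 7) went from -1.04 to -0.45, and acute phase and stress genes (9 of 9) from -0.77 to 0.06. Markers of resting microglia (6 of 6) went from 0.28 to -0.41. Of these, P2ry12 and Siglech were negative with that array (-0.32 and -0.18) and without it (-0.42 and -0.49). The mean of the neutrophil list was 8.96 on saline replicate 3, 5.47 and 6.05 on the other saline arrays and 5.31 to 6.40 on the NR arrays. These lists, too, were chosen after values had been seen.

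**Figure D5:**
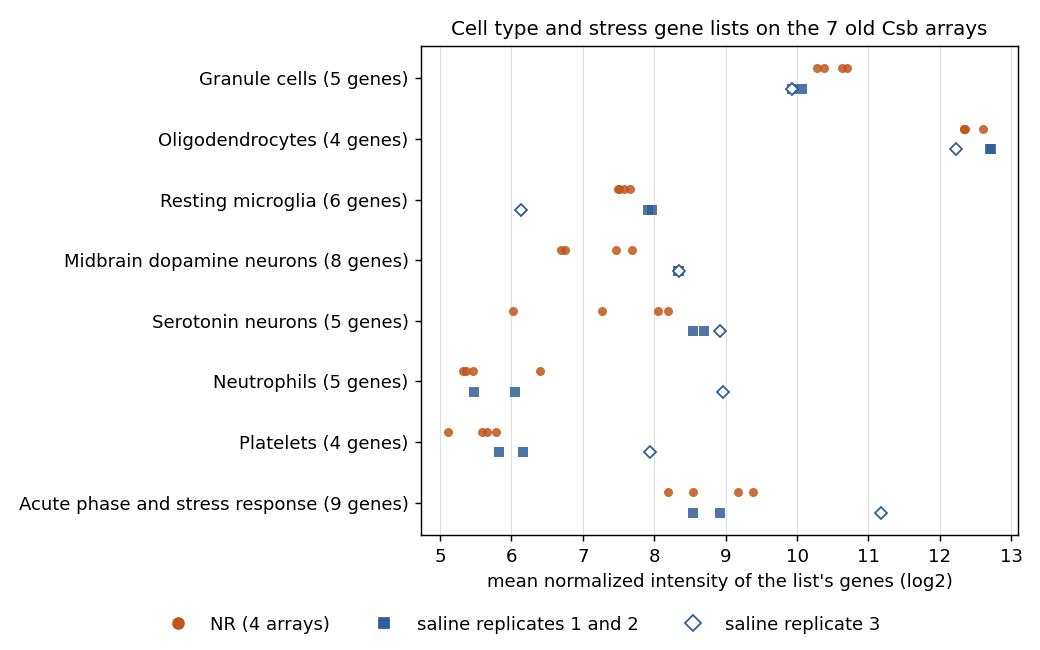
Mean log2 normalized intensity of 8 gene lists (x axis) on each of the 7 old Csb arrays, with NR as filled circles, saline replicates 1 and 2 as filled squares and saline replicate 3 as an open diamond. The dopamine and serotonin lists are lower on all NR arrays than on all saline arrays, and the neutrophil, platelet and acute phase lists are highest on saline replicate 3.

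Whether NR acted differently in old Csb than in old WT was tested as a difference of differences. Past the threshold stood 5 of 13948 probes (0.0358%), all with a lower NR difference in old Csb. They were 1700123O20Rik, Samd4, Ang, Abhd4 and Apex1, the latter an endonuclease of base excision repair, and all 5 lie on chromosome 14, as do 3.40% of the named probes tested. Their NR differences in old Csb were small: 0.03 for 1700123O20Rik, 0.12 for Samd4, -0.47 for Ang, -0.22 for Abhd4 and -0.14 for Apex1. What set them apart was old WT saline. 1700123O20Rik stood at 8.06 to 8.40 in old Csb with NR, 7.99 to 8.27 with saline and 7.80 to 8.39 in old WT with NR, but at 4.42 to 4.69 on the 3 arrays labelled old WT saline. All 5 are among the 10 probes called higher with NR in old WT (0.0717%), 9 of which lie on chromosome 14. The 3 old WT saline arrays are those that go against their label at Ncoa4, and these calls rest on them.

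None of the 20 named genes differed past the threshold from old WT (lowest adjusted p 0.485, for Ezh2) or from young Csb (0.928). The NR differences of Wars2 were 0.90 in old Csb, 0.07 in old WT, -0.07 in young Csb and -0.41 in young WT. For Ezh2 they were 0.80, -0.14, 0.00 and -0.29 in the same order. A p that misses the threshold does not show that the effects were alike. Both comparisons use arrays that go against their labels at Ncoa4.

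NR in young Csb gave 0 of 13948 calls (0%), with 81 probes at an unadjusted p under 0.05. The interaction with age gave 0 (0%), with 609. Without young Csb NR replicate 2, which goes against its label at Ncoa4, both again gave 0 calls, with 168 and 1112 probes. The signs and correlations below use that array for young Csb, and for old WT the saline arrays that go against their label. NR in young WT gave 0 (0%), with 903 at an unadjusted p under 0.05. All 10 named genes that stood higher in old Csb had a negative sign in young WT, and 7 of 10 had a positive sign in old WT. Of the 10 that stood lower, 6 had a negative sign in young WT and 6 in old WT. In young Csb 5 of the 10 higher and 3 of the 10 lower genes kept their sign. Over all probes 49.3% had a positive sign in young WT, 52.7% in old WT and 49.7% in young Csb. Across the 13948 probes the log2 differences in old Csb correlated with those in young WT at r = -0.49, in young Csb at -0.13 and in old WT at 0.17. The arrays are not shared between these comparisons, but normalization and probes are, and probes are not independent replicates.

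Lists of probes called on other arrays were followed into old Csb. Of the probes called between Csb and WT on the standard diet at 1 year of age (13.8% of those tested), 984 that were lower in Csb were kept here, and 796 of them (80.9%) had a higher sign with NR, with a median log2 difference of 0.21. Of 788 that were higher in Csb, 286 (36.3%) had a higher sign, with a median of -0.08. Over all probes kept, 51.8% had a higher sign and the median was 0.01. A score per array, the mean of the higher list minus the mean of the lower list after centring each probe over the 29 arrays, was 0.18, 0.31 and 0.40 on the saline arrays and 0.09, 0.08, -0.01 and -0.17 on the NR arrays. No old Csb NR array reached the old Csb saline range on this score. Without saline replicate 3 the medians were 0.16 and -0.06. The score did not part the genotypes among young saline arrays, at -0.05 to 0.05 in Csb and -0.20 to 0.03 in WT. Young WT NR replicate 4, at 0.34, lay inside the old Csb saline range. Old WT stood at -0.06 to 0.10 with saline and -0.35 to 0.11 with NR.

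Probes called between a high-fat and the standard diet in Csb (17.1%) were followed in the same way. This list and the one before it share the 6 Csb standard-diet arrays, which enter them with opposite signs. The results of these lists are therefore not separate from each other. Of 1099 that were higher on the high-fat diet, 689 (62.7%) had a higher sign with NR, and of 1227 that were lower, 417 (34.0%) did. The medians were 0.11 and -0.09. The score overlapped between the groups, at -0.15, 0.07, 0.08 and 0.27 on the NR arrays and -0.17, -0.11 and -0.14 on the saline arrays. Over 13737 probes kept in both arms the log2 differences correlated at r = 0.36 across probes, with no array shared.

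Probes called between old and young WT after saline (1.3%) were fewer and more one-sided, but they use the old WT saline arrays. Of 106 that were lower in old WT, 98 (92.5%) had a higher sign with NR in old Csb, with a median of 0.34 (0.223 without background correction), and of 75 that were higher, 6 (8.00%) did, with a median of -0.23. On the matching score the saline arrays stood at 0.68, 0.88 and 0.87 and the NR arrays at -0.04, 0.18, 0.33 and 0.39, without overlap. Granule cell markers and the dopamine and serotonin lists parted the same arrays, as given above, and their part in these scores was not tested.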

How the data were processed

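Intensity values of 25697 probes, linear and not normalized per the file headers, were deposited beside a detection p-value for each array. The authors' deposited value table holds a standard score of log10 intensity within each array (largest difference from a recomputation 5e-10) and served as an alternative. Per the submitters' processing notes GenomeStudio 1.9.0 was used. The genome build is not given in the sources used here, so no coordinates are printed, and chromosomes are those of the annotation below. The 29 injection arrays were background-corrected from the detection p-values (normexp, offset 16), quantile-normalized and put on the log2 scale with limma 3.58.1 in R 4.3.3. Probes with a detection p under 0.01 on at least 3 arrays were kept (13948). All 8 groups entered 1 model (lmFit, eBayes), tested two-sided, and a Benjamini-Hochberg adjusted p under 0.05 counts as changed. Arrays have no read depth: their number limits the precision.

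Gene names and chromosomes come from GEO's platform annotation (23978 probes with 1 symbol, 0 with several, 1719 with none), which can be old, and 0 symbols were updated through gene IDs. Gene lists use the brightest kept probe of a gene. The text names, for each direction, the genes largest in difference among those past the threshold, or else the 10 lowest p as values (3 in each other comparison, of which only those needed are printed). The lists and the compared groups were chosen with earlier results of these data known. Where no array of the dimmer group detected a probe, the fold is a lower bound: the brighter group's mean against, per dim array, the higher of its lowest detected level and the probe's own. Same-numbered NR and saline arrays deviated together (correlations 0.158, 0.202 and 0.122; all NR and saline pairs ran from -0.12 to 0.202), so a fit with the replicate number as a block was compared. The labels do not say that equal replicate numbers pair animals, and the column headers of the old Csb arrays carry other numbers. Scripts were tested on simulated data. No chip or scan date was at hand, so no such batch could be entered. Other alternatives were no background correction, z-score scaling, no filter, the compared groups alone, array weights, array background or brightness as a covariate, and leaving out arrays.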

Additional observations from a re-analysis of the deposited data

Results flagged for a closer look

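The NR difference in old Csb minus that in old WT passed the threshold at 5 probes, by limma's test of the difference itself. It was -3.50 for 1700123O20Rik (SE 0.25, adjusted p = 1.64e-09), -2.24 for Samd4 (SE 0.26, adjusted p = 2.29e-05), -2.23 for Ang (SE 0.36, adjusted p = 0.00429), -1.19 for Abhd4 (SE 0.19, adjusted p = 0.00374) and -1.18 for Apex1 (SE 0.17, adjusted p = 0.000764), all on the log2 scale. At each of them the 3 arrays labelled old WT saline lay below every old Csb array and every old WT NR array. Samd4, an RNA-binding repressor of translation, read 6.46 to 6.90 on them and 8.72 to 9.57 on the old Csb arrays. The part that the origin of those 3 arrays plays was not tested.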

How the results depend on the processing

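All 20 named genes kept their direction under 18 alternatives each. They were picked for a low p, and all but Acta2 had groups that did not overlap. Leaving out or reweighting arrays can hardly reverse such a sign, so much of this count was fixed in advance. The 20 genes passed the threshold in 22 of 360 cases, 15 with array weights and 7 without saline replicate 1. The 0 calls of NR in old Csb held except for 92 with array weights, 1 without the filter on dim probes (Cxcl13, log2 difference -1.03, detected on 2 of 29 arrays) and 11 without old Csb saline replicate 1 (0 to 11 when each array was left out). It held too without young Csb NR replicate 2 or the old WT saline arrays, alternatives added after the data were seen. The replicate block gave 0 calls and 1387 probes at an unadjusted p under 0.05, and it changed no call of the other comparisons but for 11 in place of 10 with NR in old WT. The difference from old WT gave 5 to 7 calls with an array left out, 3 with only its groups fitted and 14 with array weights. The difference from young Csb gave 0 to 1 and 171 with array weights. NR in old WT gave 9 to 276 (276 without old WT NR replicate 1), 4 in its own groups and 270 with array weights. NR in young Csb gave 0 to 1 (1 without young Csb saline replicate 2) and 12 with array weights, and NR in young WT 0 and 7. The median of probes lower in old than in young WT was 0.223 without background correction, against 0.341. Without saline replicate 3 the heat shock list stood at -0.13 and the astrocyte list at 0.11. With 4 against 3 arrays, dim probes and differences near the residual spread are the least certain.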

Other observations

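The fit with array weights, which counts saline replicate 3 least, called 92 probes in old Csb that the unweighted fit did not, and the genes named here were picked from them after their values were seen. Cdkn1b, an inhibitor of the cell cycle, read 7.34, 8.04, 7.11 and 7.49 with NR and 6.59, 6.18 and 6.45 with saline (weighted log2 difference 1.10, limma adjusted p = 0.0307). Atrx, a chromatin remodeller, differed by 1.01 (adjusted p = 0.0387), and Ep300, a histone acetyltransferase, by 0.51 (adjusted p = 0.0488). Both had every NR array above every saline array. Zic2 of the granule cell list differed by 1.03 (adjusted p = 0.046). Lhx1, a homeobox factor of Purkinje cells, read 9.59, 9.63, 9.64 and 9.81 with NR and 8.90, 8.69 and 9.63 with saline, so saline replicate 3 lay with the NR arrays (0.83, adjusted p = 0.0404).

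Among the genes lower with NR in that fit, H2-Aa, which presents antigen, read 6.61, 6.16, 6.66 and 6.46 with NR and 7.34, 7.85 and 6.24 with saline (weighted log2 difference -1.07, adjusted p = 0.0434). Ms4a7, found in macrophages, also had saline replicates 1 and 2 above all NR arrays, with saline replicate 3 at 5.84 below them (-0.86, adjusted p = 0.0377). In the unweighted fit their differences were -0.67 and -0.46, with adjusted p-values of 0.507 and 0.558. Ucn, a neuropeptide of the midbrain, read 7.32, 4.76, 6.64 and 4.84 with NR and 8.25, 7.41 and 7.55 with saline (-1.75, adjusted p = 0.0439). NR replicates 2 and 4 were its lowest arrays, as they were for Slc6a3.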
